A study of Rattus norvegicus with 30 samples.

Results

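The genes described here encode subunits of the machinery of oxidative phosphorylation, with a few close helpers, as measured in rat hippocampus after kainate or phosphate-buffered saline (PBS). A gene was taken when its probe set on the array was annotated with exactly 1 gene symbol and that symbol began with Nduf, Sdh followed by a to d, Uqcr, Cox4 to Cox8, or Atp5. The rule itself uses gene symbols and no measured values, but it was set with earlier results of these data known. The rule found 101 probe sets for 55 genes, of 4736 genes with a single-gene probe set on the array. Of the 55 genes, 27 were named for complex I, 2 for complex II, 3 for complex III, 13 for complex IV and 10 for complex V. For 28 genes with more than 1 probe set, the probe set with the highest mean log2 signal over the 30 arrays stood for the gene. All 55 genes passed the filter on dim probe sets.

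By their symbols, 51 of the 55 genes were counted as subunit genes. Ndufa4l2, a relative of Ndufa4, and Cox7a2l are among the 51, and whether their proteins are subunits was not checked. The other 4 are Ndufaf3, an assembly factor of complex I, Sdhaf2, an assembly factor of complex II, Atp5if1, the inhibitor protein of the ATP synthase, and Cox6c-ps1, a transcribed pseudogene. Ndufa4 is counted with complex I for its symbol, although its protein is now regarded as a subunit of complex IV. Cox6c-ps1 was listed at the floor of the signal scale on 11 of 30 arrays, so its differences carry little information.

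Oxidative phosphorylation is carried out in the inner mitochondrial membrane. Complex I takes electrons from NADH and complex II takes them from succinate. Complex III passes them to cytochrome c, and complex IV passes them to oxygen. The proton gradient that complexes I, III and IV build drives complex V, the ATP synthase. In the brain most ATP comes from this route, and firing neurons and the ion pumps that restore their gradients are its main users. The genes described here are nuclear.

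The design had 10 groups of 3 arrays. Rats were treated with kainate, which acts on glutamate receptors and provokes seizures, or with PBS. They were killed after 1, 6, 24, 72 or 240 h, and each time had its own PBS group. Total RNA of hippocampus was measured on Affymetrix arrays, 30 in all. The strain, age, sex, dose and route are not given in the sources used here, nor whether an array stands for 1 rat or a pool. The p-values therefore measure the spread between these arrays, which may be in part technical.

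Deposited signals of the 30 arrays had trimmed means between 150.1 and 150.2, and replicate arrays correlated with a median r of 0.947 over probe sets. Arrays have no read depth, and the number of arrays limits the precision. No neuron marker was at the floor on all arrays of a time, and the summed signal of the 17 genes lay between 14350 and 19056. The lists hold no marker specific to hippocampus, so the region itself was not checked. The spread of the oxidative phosphorylation genes within a group, a median SD of 0.20 on the log2 scale, was smaller than the median of 0.31 over all 6303 tested probe sets. Among the genes it ran from 0.12 for Uqcrfs1, the iron-sulfur protein of complex III, to 0.87 for Cox8b, a dim probe set for the muscle isoform of a complex IV subunit.

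**Figure D1:**
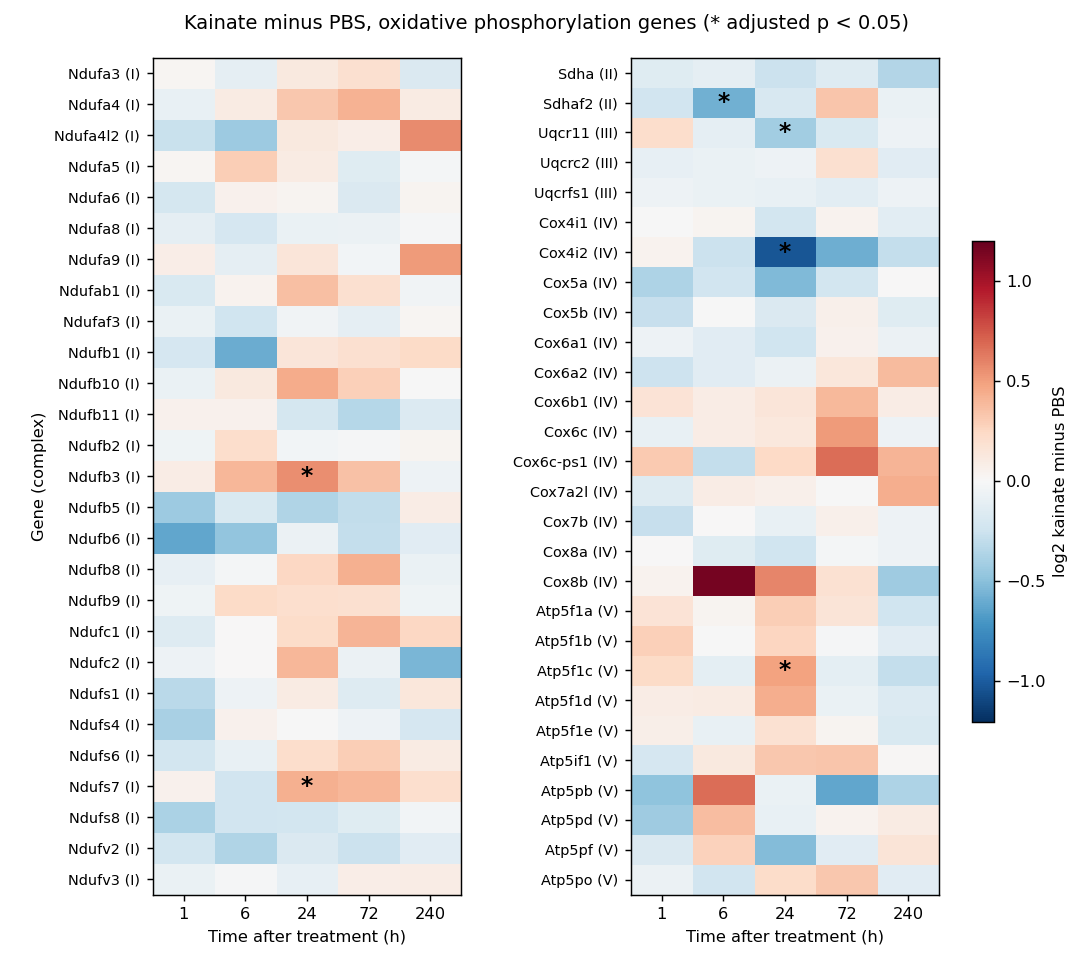
Colour gives the log2 difference of kainate minus PBS (means of 3 arrays each) for each of the 55 genes at 1, 6, 24, 72 and 240 h, with the complex in brackets and a star for an adjusted p under 0.05. 5 stars stand at 24 h and 1 at 6 h, and values above and below 0 lie side by side in complexes I, IV and V, most of them without a star.

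At 24 h after kainate, 3 of the 55 genes were higher than in the PBS group of that time and 2 were lower. The risers were Ndufb3 and Ndufs7 of complex I and Atp5f1c of the ATP synthase, at 1.34- to 1.47-fold. The genes that fell were Uqcr11 of complex III and Cox4i2, an isoform of complex IV subunit 4. The 5 calls are 9.09% of the genes, where 11.3% of all tested probe sets were called in the same comparison, so the share of called genes was near the background. By direction, 5.03% of all tested probe sets were called higher and 6.3% lower. The calls come from limma's moderated test, with p-values adjusted by Benjamini-Hochberg over all 6303 probe sets and a threshold of 0.05. At an unadjusted p under 0.05, 9 genes lay higher and 4 lower, beside 26.4% of all tested probe sets.

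Ndufb3 encodes an accessory subunit in the membrane arm of complex I. Its signal at 24 h was 634, 800 and 592 on the PBS arrays and 938, 973 and 1044 on the kainate arrays. All 3 kainate arrays lay above all 3 PBS arrays. The difference was 0.56 ± 0.15 (log2, SE, 3 arrays against 3), with a 95% interval from 0.24 to 0.87 and an adjusted p of 0.0192 in limma.

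Ndufs7 encodes a subunit of the matrix arm of complex I that holds an iron-sulfur cluster on the path to ubiquinone. Its PBS arrays gave signals of 428, 480 and 432 at 24 h, and its kainate arrays 542, 625 and 633. The groups did not overlap. The rise was 0.42 ± 0.13 on the log2 scale (SE, 3 arrays against 3; limma adjusted p 0.0358). The call held in 10 of 14 other settings and in 2 of 6 fits without an array of 24 h.

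Atp5f1c encodes the gamma subunit, the central stalk that turns inside the catalytic head of the ATP synthase. Signals were 856, 656 and 782 with PBS and 1106, 888 and 1220 with kainate at 24 h. The lowest kainate array, at 888, stood just above the highest PBS array, at 856. The difference was 0.48 ± 0.16 (log2, SE, 3 arrays against 3; limma adjusted p 0.0470), close to the threshold. The call was lost in 7 of 14 other settings, quantile normalization and the replicate block among them, and held in 2 of 6 fits without an array of 24 h.

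Cox4i2 encodes the alternative isoform of subunit 4 of complex IV, known from lung and from cells around small vessels, while Cox4i1 encodes the common isoform. Signals of Cox4i2 at 24 h were 252, 180 and 277 on the PBS arrays and 98.4, 143 and 105 on the kainate arrays. No kainate array reached the lowest PBS array. The fall was the largest of any of the 55 genes at 24 h, at -1.03 ± 0.26 on the log2 scale (SE, 3 arrays against 3; limma adjusted p 0.0104), or 2.04-fold. Cox4i1 had 4611, 4842 and 4299 with PBS and 3562, 4146 and 4106 with kainate. Its groups did not overlap either, but its difference of -0.22 (95% interval -0.46 to 0.01) did not pass, with an adjusted p of 0.218.

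Among 9 tested blood and endothelial markers, 2 fell and 1 rose at 24 h, which is 33.3%, beside 11.3% of all tested probe sets called. Slco1a4, a transporter of the blood-brain barrier, fell by 1.03 on the log2 scale, while Slc2a1, the glucose transporter of the same cells, rose by 0.56. The other marker that fell was Slc4a1, by 0.81. The summed signal of the 9 markers was 3611 to 4557 on the PBS arrays and 3272 to 4332 on the kainate arrays. None of the 9 was at the floor on all arrays of that time. The list was made for blood and endothelial cells and not for the cells around small vessels. The part of any of these cells in the fall of Cox4i2 was not tested.

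Uqcr11 encodes a small accessory subunit of complex III. Its signal at 24 h was 2270, 2164 and 2456 with PBS and 1353, 1892 and 1961 with kainate. The groups did not overlap, and the first kainate array was much the lowest. The difference was -0.42 ± 0.14 (log2, SE, 3 arrays against 3; limma adjusted p 0.0426). A second probe set for Uqcr11 gave 0.02 with an adjusted p of 0.939, so the probe sets of the gene disagree and the call belongs to 1 probe set. It held in 8 of 14 other settings and in 2 of 6 fits without an array of 24 h.

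**Figure D2:**
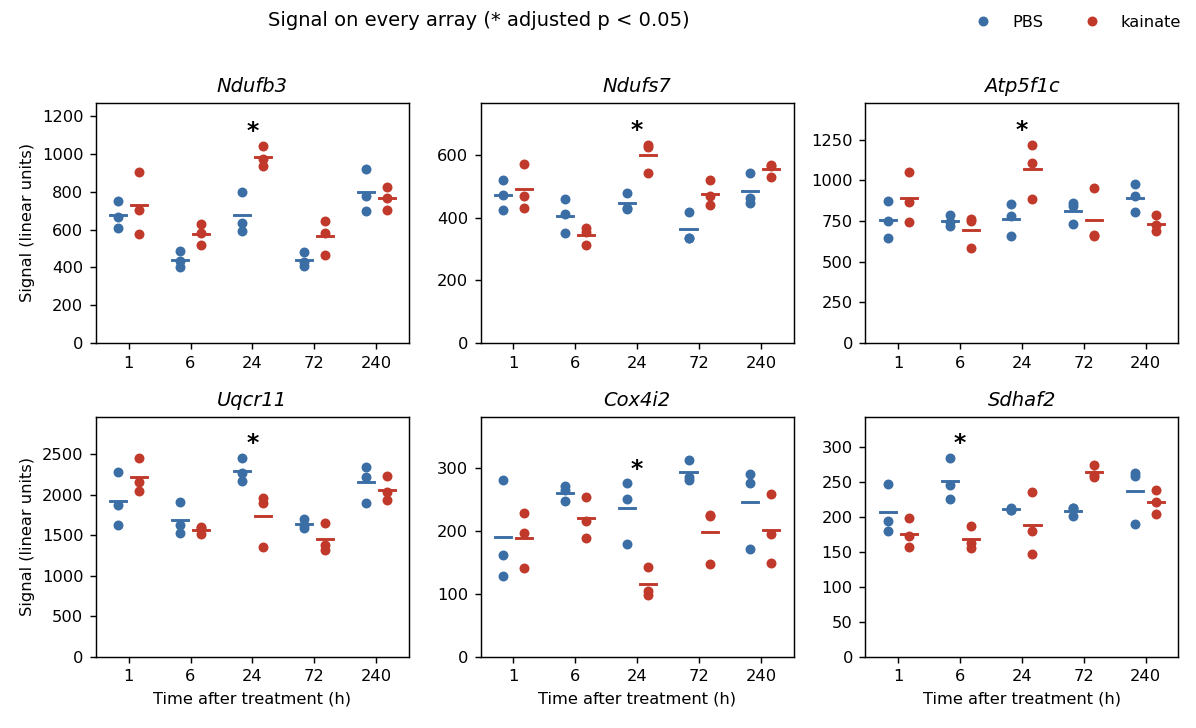
Signal in linear units on each of the 30 arrays for the 6 genes that passed at a time, by time in h, with PBS in blue, kainate in red, a bar for each mean of 3 arrays and a star for an adjusted p under 0.05. Kainate and PBS points are separate at each starred time, and Ndufb3 and Uqcr11 are lower at 6 and 72 h in both treatments.

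Further genes leaned one way at 24 h without passing. Ndufb10 of complex I had 420, 440 and 322 with PBS and 543, 520 and 528 with kainate, a difference of 0.44 with an adjusted p of 0.0732. Atp5f1d, the delta subunit of the ATP synthase, had 807, 673 and 644 against 967, 932 and 966, a difference of 0.44 with an adjusted p of 0.0993. In both genes the kainate arrays lay above all PBS arrays. Atp5pf, a subunit of the peripheral stalk that holds the head of the ATP synthase still, gave -0.52 (adjusted p 0.151), and its second probe set gave -0.62 (adjusted p 0.119). The groups of 15 of 55 genes did not overlap at 24 h, 9 with kainate higher and 6 with kainate lower. That is 27.3% of the genes, beside 28.1% of all tested probe sets (12.5% higher and 15.6% lower).

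By complex, the median difference at 24 h was 0.12 for the 27 genes of complex I and 0.24 for the 10 of complex V. It was -0.23 for the 2 genes of complex II, -0.08 for the 3 of complex III and -0.09 for the 13 of complex IV. Over all 55 genes the median was 0.06, beside -0.05 over all tested probe sets. These medians are descriptions without a test, because the genes share the same arrays. They also depend on the probe set that stands for each gene. At 24 h 21 of the 40 other tested probe sets had the sign of the standing one.

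Complex V was split by gene symbol, a split that was not planned and is described without a test, since the genes share the same arrays. All 5 genes from Atp5f1a to Atp5f1e lay above 0 at 24 h, with a median of 0.29 and a range of 0.18 to 0.48. Only Atp5f1c passed among them. Atp5f1b, the beta subunit where ATP is made, had 2350, 2043 and 2406 with PBS and 2913, 2362 and 2872 with kainate, and the groups overlapped. The 4 genes whose symbols begin with Atp5p had a median of -0.08, from -0.52 for Atp5pf to 0.22 for Atp5po, and none passed. Atp5po encodes the subunit that joins the peripheral stalk to the head. The inhibitor gene Atp5if1 stood at 0.33 (adjusted p 0.303), and its 3 other tested probe sets gave 0.71, 0.32 and -0.02, none of them passing.

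Within complex I, 17 of 27 genes lay above 0 at 24 h and 10 below. The 8 Ndufa genes, Ndufab1 among them, had a median of 0.12 and the 9 Ndufb genes 0.14, from -0.36 for Ndufb5 to 0.56 for Ndufb3. Of the subunits of the matrix arm, Ndufs7 rose. Ndufs8, which also holds iron-sulfur clusters, stood at -0.22 (adjusted p 0.353) and Ndufv2 at -0.17 (adjusted p 0.596), and no test compared them with Ndufs7. The assembly factor Ndufaf3 stood at -0.04 (adjusted p 0.895).

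In complex IV the probe sets standing for several constitutive subunits gave values below 0. Cox6a1 had 3777, 3996 and 3758 with PBS and 2801, 3613 and 3386 with kainate, a difference of -0.24 with an adjusted p of 0.191. Cox8a had 4622, 4692 and 4023 against 3606, 3870 and 3770, also a difference of -0.24, with an adjusted p of 0.268. Neither pair of groups overlapped, and neither difference passed. The probe sets of these genes did not share 1 direction. The other probe sets of Cox6a1 gave 0.24 and 0.22, and with its probe sets averaged Cox6a1 stood at 0.08. Cox5b stood at -0.18, and its second probe set gave 0.22. Of the others of Cox8a 1 gave 0.19 and 2 gave -0.34 and -0.27, and those of Cox4i1 gave 0.16 and -0.09. None of them passed.

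Cox6a2 and Cox8b encode the muscle isoforms of the same subunits. Cox6a2 differed by -0.07 at 24 h (95% interval -0.46 to 0.33). Cox8b gave the largest value above 0 among the 55 genes, 0.58, but its interval ran from -0.71 to 1.88. Of 9 striated muscle markers none passed at 24 h. Their summed signal was 1012 to 1464 on the PBS arrays and 1014 to 1054 on the kainate arrays. Only Des and Tnni2, which encode desmin and a fast troponin I, were at the floor on all 6 arrays of 24 h.

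**Figure D3:**
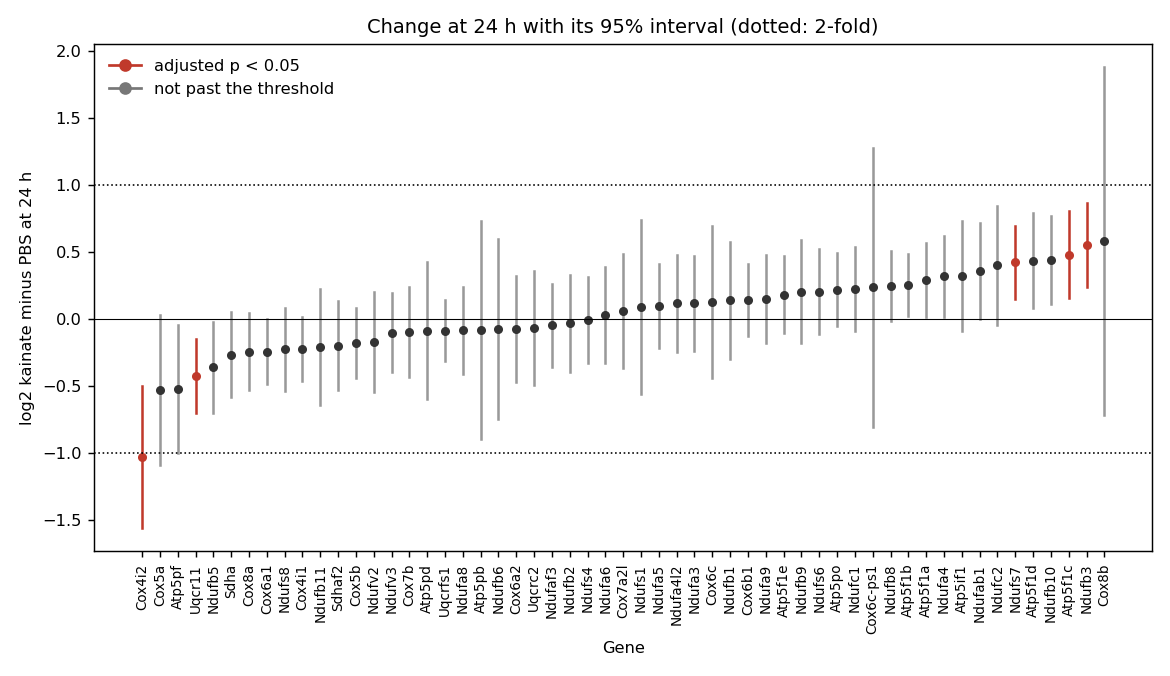
Log2 difference of kainate minus PBS at 24 h for the 55 genes, ordered by value, with the 95% interval of limma's fit as a line (3 arrays a group). The 5 called genes are in red, and dotted lines mark a 2-fold change, inside which 51 of the 55 intervals lie.

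The intervals bound what may have been missed. At 24 h the 95% interval lay wholly within a 2-fold change for 51 of 55 genes and within 1.5-fold for 32. For the other times, 50 to 52 intervals lay within 2-fold. The 24 h calls depended on single arrays. Leaving out PBS array 3 of 24 h left 0 calls and leaving out kainate array 3 left 1. There were 2 calls without PBS array 1, and 3 without PBS array 2 or without kainate array 1.

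Cell type markers moved at the same time. At 24 h 11.3% of all tested probe sets were called, 5.03% higher and 6.3% lower. Of 17 neuron markers 7 fell and none rose, which is 41.2%. Their median difference was -0.37, and their summed signal was 16842 to 17996 on the PBS arrays and 14350 to 14653 on the kainate arrays, with none at the floor on all arrays. Camk2a, Nefh, Gria1 and Vsnl1, the 4 with the smallest p, fell by 1.89, 0.74, 0.95 and 0.54 on the log2 scale. Of 10 microglia and macrophage markers 3 rose and none fell, which is 30%. Their median was 0.61 and their summed signal went from 635 to 761 with PBS to 1302 to 1607 with kainate. Lgals3, C1qb and Cd74 rose by 4.40, 1.75 and 1.57 on the log2 scale. Cd74, the chain that accompanies MHC class II, was at the floor on all 3 PBS arrays. Of 10 astrocyte markers 1 rose (Vim, the filament protein vimentin) and 2 fell (Aldoc and S100b), which is 30%. The sums of the 10 markers were 10353 to 11007 with PBS and 9773 to 10943 with kainate. No marker passed among 8 of oligodendrocytes (8738 to 9026 against 7404 to 7985) or 6 of choroid plexus (1339 to 3886 against 2879 to 5897). The part of these cells in the changes of the oxidative phosphorylation genes was not tested. In tissue RNA, fewer cells of a type and less RNA per cell cannot be told apart.

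At 6 h only Sdhaf2 passed, and it was lower after kainate. Sdhaf2 encodes the factor that helps attach the flavin cofactor to the catalytic subunit of complex II. Its signal was 226, 285 and 246 with PBS and 187, 157 and 163 with kainate, with no overlap. The difference was -0.58 ± 0.16 (log2, SE, 3 arrays against 3; limma adjusted p 0.0356), a 1.49-fold fall. That is 1 of 55 genes, or 1.82%, beside 3.93% of all tested probe sets (0.698% called lower). The call was lost without array 2 or 3 of either group. Ndufb1 passed in 1 of 6 fits without an array of 6 h, the fit without PBS array 1 (limma adjusted p 0.00466). Ndufb6 also passed in 1 of 6, the fit without PBS array 2 (limma adjusted p 0.00934). Each of these fits left out the gene's lowest PBS array, so they add no support. The second probe set of Ndufb6 gave -0.04 with all arrays. Sdha, the catalytic subunit itself, differed by -0.11 (95% interval -0.43 to 0.21). Of 10 microglia and macrophage markers 2 rose at 6 h, which is 20%, C1qb by 1.19 and Lgals3 by 1.58 on the log2 scale. Of 9 blood and endothelial markers only Slc2a1 passed, which is 11.1%, and it rose by 1.28. No marker of neurons, astrocytes, oligodendrocytes, choroid plexus or striated muscle passed at 6 h. The part of any of these cells in the fall of Sdhaf2 was not tested.

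The genes next to Sdhaf2 at 6 h did not pass. Ndufb1, a small membrane-arm subunit of complex I, had 233, 399 and 506 with PBS and 204, 257 and 259 with kainate, a difference of -0.60 with an adjusted p of 0.138. Its PBS arrays were scattered and overlapped the kainate arrays. Ndufb3 had 487, 400 and 432 against 630, 584 and 520, a difference of 0.39 (adjusted p 0.187) with no overlap. Ndufa4l2, a relative of Ndufa4 known as a target of the hypoxia factor HIF-1, had 175, 197 and 196 against 150, 127 and 141. Its difference was -0.44 (adjusted p 0.204), again with no overlap. The 4 other tested probe sets of Ndufa4l2 did not share 1 direction at 6 h, at -0.08, 0.12, -1.58 and -0.64, and none passed. The groups of 3 genes did not overlap at 6 h, 5.45% beside 27.7% of all tested probe sets. The median difference of the 55 genes at 6 h was -0.02, beside -0.11 over all tested probe sets.

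At 6 h the largest values above 0 came from dim or scattered probe sets. Cox8b stood at 1.15, with an interval from -0.15 to 2.45. Atp5pb, a stalk subunit of complex V, had 987, 203 and 783 with PBS and 790, 825 and 965 with kainate. The second PBS array was far below the other 5, and the difference of 0.67 did not pass (adjusted p 0.444). Ndufb6 had 1313, 351 and 1268 against 707, 559 and 553, with the same PBS array the lowest of all 6. Its difference was -0.47 (adjusted p 0.527), and a second probe set with less scatter gave -0.04 ± 0.15 (SE). A second probe set of Ndufab1, the mitochondrial acyl carrier protein, rose by 0.95 with an adjusted p of 0.0387, while the probe set that stands for the gene gave 0.04. This was the only call among the 40 other tested probe sets of these genes at any of the 5 times.

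At 1 h none of the 55 genes passed in limma, and 5 did at an unadjusted p under 0.05, 1 higher and 4 lower. The background was 1.09% called and 9.68% at an unadjusted p under 0.05. Of the 55 differences 38 lay below 0, and the median was -0.09, beside -0.04 over all tested probe sets. Ndufb5 (-0.44, adjusted p 0.303), Atp5f1b (0.29, adjusted p 0.339), Ndufs8 (-0.38, adjusted p 0.345) and Ndufs4 (-0.39, adjusted p 0.369) had the smallest p-values. Ndufs4 is an accessory subunit of the matrix arm, needed for a stable complex I. Atp5f1b had 2000, 2196 and 2100 with PBS and 2600, 2603 and 2474 with kainate, with all kainate arrays higher. Ndufs8 had 756, 747 and 779 against 628, 531 and 595, with all kainate arrays lower, and its 2 other probe sets gave -0.12 and -0.14. A second probe set of Ndufb5 gave 0.30 (adjusted p 0.734), so its probe sets differ in sign. The groups of 7 genes did not overlap, 12.7% beside 10.3% of all tested probe sets.

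The 5 Atp5f1 genes lay above 0 at 1 h too, with a median of 0.16. At 24 h each was above 0 also in all 14 other settings, which draw on the same arrays and so add no independent support. The 4 Atp5p genes lay below 0 at 1 h, with a median of -0.30. At 6 h 2 Atp5f1 genes lay above 0 and 3 below (median -0.005), and 3 of the 4 Atp5p genes lay above 0 (median 0.32). At 72 h the Atp5f1 genes were 2 above and 3 below (median -0.02), and the Atp5p genes 2 above and 2 below (median -0.05). None of the 9 passed at 1, 6 or 72 h. Ndufb6 gave the lowest value of all at 1 h, -0.62 ± 0.33 (SE), with an interval from -1.29 to 0.05, while its second probe set gave -0.02 ± 0.15 (SE).

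At 72 h none of the 55 genes passed in limma, beside 0.0476% of all tested probe sets, or 3 of 6303. At an unadjusted p under 0.05 there were 8 genes higher and 1 lower, or 9 of 55, beside 6.33% of all probe sets. The groups of 16 genes did not overlap, 12 higher and 4 lower, which is 29.1% beside 22.1% of all tested probe sets (10.1% higher and 12% lower). Ndufb8, an accessory subunit of the membrane arm, had 997, 1195 and 991 with PBS and 1336, 1316 and 1639 with kainate, a difference of 0.43 with an adjusted p of 0.326. Its 3 other tested probe sets gave 0.09, 0.34 and 0.22. Ndufs7 had 335, 417 and 336 against 439, 470 and 520 (0.40, adjusted p 0.431). Cox6b1, a subunit on the cytochrome c side of complex IV, had 1590, 1608 and 1455 against 1858, 1848 and 2444 (0.39, adjusted p 0.447). Ndufa4 had 996, 1101 and 1091 against 1318, 1412 and 1521 (0.41, adjusted p 0.541). In these 4 genes every kainate array lay above every PBS array.

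The median over all genes at 72 h was 0.04, beside -0.04 for all tested probe sets, and 29 genes lay above 0 and 26 below. Cox4i2 was the lower gene at an unadjusted p under 0.05. It had 287, 313 and 281 with PBS and 226, 147 and 224 with kainate, a difference of -0.59 (adjusted p 0.760) with no overlap. Ndufb5 had 582, 563 and 576 against 465, 465 and 475, a difference of -0.29 (adjusted p 0.820), also with no overlap, but its second probe set gave 0.31 (adjusted p 0.909). Sdhaf2, lower at 6 h, had 214, 214 and 201 against 258, 260 and 275 at 72 h. Its difference of 0.34 did not pass (adjusted p 0.776). Atp5pb stood at -0.62, and 1 kainate array at 331 lay far below the others.

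At 240 h none of the 55 genes passed in limma, beside 0.0476% of all tested probe sets. At an unadjusted p under 0.05 there were 3 genes higher and 2 lower, beside 12.2% of all probe sets. Ndufa4l2 had 105, 114 and 108 with PBS and 175, 144 and 167 with kainate, a difference of 0.57 (adjusted p 0.206) with no overlap. Its 4 other tested probe sets gave 0.08, 0.55, 0.11 and 0.22, and none passed. Ndufa9, a subunit at the junction of the arms of complex I, had 278, 260 and 300 against 474, 459 and 289, a difference of 0.51 (adjusted p 0.219). The third kainate array of Ndufa9 lay among the PBS arrays. The gene passed in 1 of 6 fits without an array of 240 h. That fit left out the array that went against the rise (limma adjusted p 0.0424), so it adds no support. Ndufc2, a membrane-arm subunit of complex I, gave -0.55 (adjusted p 0.327) and Sdha gave -0.36 (adjusted p 0.354). The 5 Atp5f1 genes all lay below 0 at 240 h, with a median of -0.18, and none passed. The groups of 3 genes did not overlap, 5.45% beside 14.5%. The median of the 55 genes was -0.06, beside 0.03 over all tested probe sets.

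**Figure D4:**
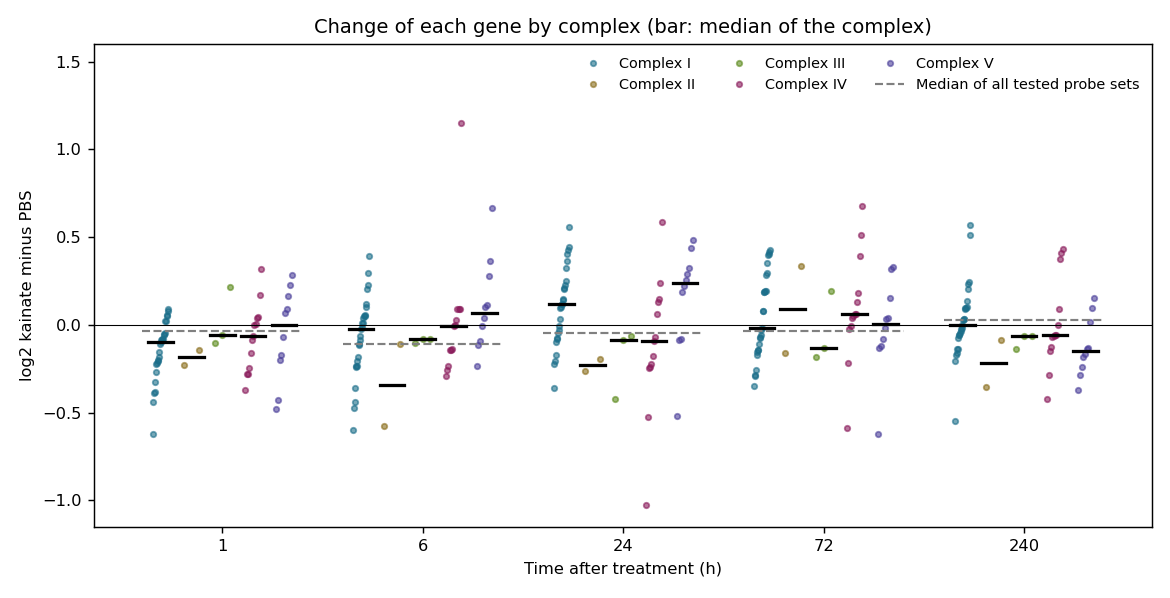
Each point is 1 gene's log2 difference of kainate minus PBS, coloured by complex, at 1, 6, 24, 72 and 240 h, with a black bar for the median of the complex and a dashed line for the median of all 6303 tested probe sets. At 24 h the bar of complex V is at 0.24 and that of complex IV at -0.09, and no median of complex I, III, IV or V is farther than 0.24 from 0 at any time.

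The remaining extremes of each complex were as follows, with none of them passing. In complex I, Ndufb11 was the lowest gene at 72 h (-0.35) and Ndufb3 the highest at 1 h (0.09). In complex III, Uqcrc2, a core protein, ranged from -0.14 at 240 h to 0.19 at 72 h, and Uqcrfs1 from -0.13 at 72 h to -0.06 at 1 h. Uqcr11 stood at 0.21 at 1 h, -0.10 at 6 h and -0.06 at 240 h. In complex II, Sdhaf2 stood at -0.23 at 1 h, -0.20 at 24 h and -0.08 at 240 h, and Sdha at -0.15 at 1 h, -0.26 at 24 h and -0.16 at 72 h. In complex IV, Cox5a gave -0.37 at 1 h and Cox7a2l, known for its role in joining complexes III and IV, gave 0.43 at 240 h (adjusted p 0.402; 0.09 on its second probe set), where Cox8b was the lowest (-0.42). Cox6c-ps1 had the highest values of complex IV at 1 h (0.32) and at 72 h (0.67) and its lowest at 6 h (-0.29), at signals of 42.9 or less. In complex V, Atp5pb was the lowest at 1 h (-0.48) and Atp5po at 6 h (-0.23), Atp5if1 the highest at 72 h (0.33), and at 240 h Atp5pb was the lowest (-0.37) and Atp5pf the highest (0.15).

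Averaged over the 5 times, 2 of the 55 genes differed, 3.64% beside 4.41% of all tested probe sets. Ndufb3 was higher by 0.27 ± 0.07 (log2, SE; limma adjusted p 0.0212), and its difference was above 0 at 4 of 5 times. Cox4i2 had a mean difference of -0.42 ± 0.12 (limma adjusted p 0.0313), below 0 at 4 of 5 times. Ndufb5 came next with -0.24 (adjusted p 0.0622), and with its probe sets averaged it stood at -0.06 (adjusted p 0.686). The call of Ndufb3 held whichever of the 30 arrays was left out, and that of Cox4i2 held in 19 of those 30 fits. The median of the mean difference over the 55 genes was -0.00, beside -0.03 over all tested probe sets. For 51 genes the 95% interval of the mean difference lay within a 1.5-fold change. The exceptions were Ndufb6, Cox4i2, Cox6c-ps1 and Cox8b.

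An effect at any of the 5 times was called for 3 genes by limma's F test: Ndufb3 (adjusted p 0.0284), Ndufs7 (0.0303) and Cox4i2 (0.0414). That is 5.45% of the genes, beside 9.33% of all tested probe sets. A kainate effect that differs between times was called for none, beside 6.62%. At an unadjusted p under 0.05, 8 genes passed that test, beside 22% of all probe sets. The smallest adjusted p-values were those of Ndufa4l2 (0.0560), Ndufs7 (0.0919) and Sdhaf2 (0.0968). The test does not show that the 24 h effects differ from those of the other times. For 3 genes, 5.45%, the kainate arrays lay wholly above the PBS arrays at 1 time and wholly below them at another, beside 12.4% of all tested probe sets.

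More genes were called between the PBS groups of different times than between kainate and PBS. Limma's F test among the 5 PBS groups called 21 of 55 genes, 38.2%, beside 16.9% of all tested probe sets. The genes have less spread within a group (median SD 0.20, against 0.31), and no share was taken over probe sets of like spread. The PBS arrays of 6 and 72 h are set here against those of 1, 24 and 240 h, a division taken from earlier results on these arrays, named in no label and described without a test. In 17 of the 21 genes the means of both 6 and 72 h lay beyond those of the other 3 times, 16 below and 1 above, beside 602 of the 1065 probe sets called. The other 4 were Atp5pd, Ndufa8, Ndufb1 and Uqcrfs1. Uqcrfs1 had its lowest PBS mean at 240 h (10.13 on the log2 scale, against 10.45 at 6 h and 10.31 at 72 h), and its difference between the 2 sets of times was -0.04. The single arrays of the 2 sets of times did not overlap for 3 genes, 5.45%, beside 2.78% of all tested probe sets. Of the 21 genes 20 were lower on the PBS arrays of 6 and 72 h and 1, Ndufa4l2, was higher by 0.43. Of the 1065 probe sets called, 592 were higher and 473 lower. With arrays centred on their median these became 347 and 784, and 27 genes were called, all lower. Over all 55 genes, 47 (85.5%) were lower on the PBS arrays of 6 and 72 h, beside 40.8% of all tested probe sets. The median was -0.30 for the genes and 0.09 for all tested probe sets. Over 12 other settings the median of the genes ran from -0.43 to -0.26.

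Cox5b had the smallest p of the 21, with an adjusted p of 7.96e-05 in limma's F test. Its protein is a constitutive subunit on the matrix side of complex IV. Its signal ran from 1071 to 1580 on the 6 PBS arrays of 6 and 72 h (median 1154) and from 1280 to 2138 on the 9 others (median 2006). The ranges overlapped, because the PBS arrays of 240 h, at 1590, 1280 and 1388, were nearer to those of 6 and 72 h. Cox4i1 ran from 2520 to 3415 (median 2998) against 3459 to 5072 (median 4511), without overlap (adjusted p 0.000128). Atp5po ran from 862 to 1269 (median 1000) against 1231 to 1847 (median 1579; adjusted p 0.000292).

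Ndufb3 ran from 400 to 487 against 592 to 922 (adjusted p 0.000356) and Atp5f1e, the epsilon subunit of the ATP synthase, from 887 to 1042 against 1077 to 1702 (adjusted p 0.00313). Neither gene's ranges overlapped, and with Cox4i1 these are the 3 genes without overlap. By complex, 9 of 27 genes of complex I were called lower and 1 higher, 2 of 3 of complex III, 6 of 13 of complex IV and 3 of 10 of complex V were called lower, and neither gene of complex II was called. Atp5f1a, Atp5f1b, Atp5f1c and Atp5f1d were not called, and their differences lay between -0.06 and 0.02.

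On the kainate arrays 48 of 55 genes were lower at 6 and 72 h than at 1, 24 and 240 h, by a median of -0.25. Of the 21 genes called among the PBS groups 20 were lower. The share of all tested probe sets that were lower on the kainate arrays was not taken. The median deviation of the 55 genes from their own means lay between -0.31 and 0.01 on the 12 arrays of 6 and 72 h. It lay between -0.05 and 0.28 on the other 18, so the ranges overlapped. The -0.31 was PBS array 2 of 6 h, and the other PBS arrays of 6 h were at -0.07 and 0.01. At 240 h the PBS arrays were at 0.15, -0.05 and 0.02 and the kainate arrays at -0.01, 0.06 and 0.01. The median of this deviation over the kainate arrays was -0.14 at 6 and 72 h and 0.06 at the other times. For all tested probe sets these medians were 0.014 and 0.004. The beta-actin probe sets for the 3' and 5' ends, a sign of RNA length or labelling, gave a median log2 ratio of 0.44 at 6 and 72 h, lower than the 0.66 at the other times. The same ratio was 0.96 and 1.36 for the hexokinase probe sets, and -0.06 and 0.02 for those of Gapdh, a difference within the Gapdh ratio's SD of 0.13 on the 18 other arrays. The part of these ratios in the difference was not tested, and time and any processing by time cannot be told apart. Each kainate group was compared with the PBS group of its own time.

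**Figure D5:**
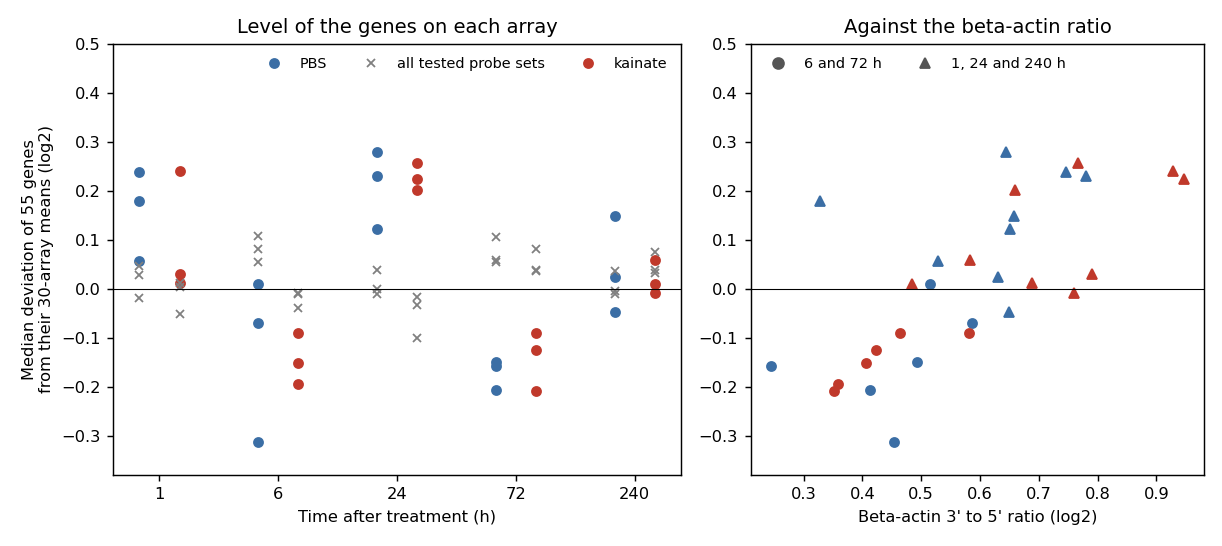
Left, the median deviation (log2) of the 55 genes from their means over 30 arrays, for each PBS (blue) and kainate (red) array by time, with crosses for the median of all tested probe sets; right, the same values against the log2 ratio of the 3' to the 5' beta-actin probe set. The 12 arrays of 6 and 72 h lie between -0.31 and 0.01, and the ranges of PBS and kainate overlap at each time.

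Genes that work beside the respiratory chain were taken from fixed lists and are read against the 11.3% of all tested probe sets called at 24 h. Of 15 tested genes of the tricarboxylic acid cycle and pyruvate dehydrogenase, none passed at 24 h, and the median was -0.13. Pdp1, a phosphatase that activates pyruvate dehydrogenase, rose by 0.72 at 6 h. None of 5 genes for cytochrome c, electron donors and assembly factors named outside the rule passed at any time, and neither did the 2 regulators of mitochondrial gene expression that were measured. Of 16 carriers and membrane proteins, Slc25a20, the carnitine-acylcarnitine carrier, rose 1.79-fold and Tspo, an outer membrane protein known as a microglial marker, rose 1.99-fold at 24 h. Slc25a1, the citrate carrier, fell by 0.60 on the log2 scale. Those 3 calls are 18.8% of the 16, and the median was 0.16. At 6 h Tomm20, a receptor of the protein import machinery, rose by 0.51.

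Of 7 mitochondrial chaperones and proteases 2 rose at 24 h and none fell, which is 28.6%, with a median of 0.47. Hspd1, the matrix chaperonin Hsp60, rose 1.49-fold from 850 ± 160 to 1251 ± 63.3 (signal, SD, 3 arrays each; limma adjusted p 0.00782). Hspa9, the import motor chaperone mortalin, rose 2.15-fold from 117 ± 33.6 to 250 ± 57.6 (adjusted p 0.0275). Of 12 glycolytic enzymes 1 rose and 3 fell, which is 33.3%, with a median of -0.01. Pfkp, the platelet type of phosphofructokinase, rose by 0.40 on the log2 scale, and the muscle type Pfkm fell by 0.82. Aldoc and Ldhb fell by 0.83 and 0.75. The differences between these lists and the oxidative phosphorylation genes were not tested.

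A further 6 probe sets fit the rule by name but are annotated with more than 1 gene, so they stand outside the 55. They hold Atp5mc1 and Atp5mc2, genes of the membrane ring of the ATP synthase, Cox7a2, Ndufb4, Ndufs5 and Cox5a, each with a near copy. None passed at any time. For the second Cox5a probe set the difference at 24 h was 0.27, where the single-gene probe set that stands for Cox5a gave -0.53, and neither passed. The probe set standing for Ndufa4l2 carries the manufacturer's suffix for probes shared within a gene family, so its signal may come from more than 1 transcript.

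Promoter sequence was available for 47 of the 55 genes, as the 250 bases before the RefSeq gene start in build GRCr8, and 8 genes have no entry (Cox6c-ps1, Ndufb9, Ndufa8, Cox6c, Atp5pd, Cox6a1, Cox4i2 and Uqcr11). Short motifs of factors known for respiratory chain genes were searched on both strands. The core of the NRF-1 site, TGCGCA, was in 10 of 47 windows (21.3%), beside 6.57% of 27457 RefSeq promoters and 10.7% of 3015 tested genes. The ETS site of GABP (also called NRF-2), CCGGAAG, was in 9 (19.1%, beside 7.74% and 12.0%). The YY1 core, GCCATNTT, was also in 9 (19.1%, beside 4.32% and 4.11%). The Sp1 box, GGGCGG, was in 17 (36.2%, beside 32.4% and 57.9%). No motif overlapped another in these windows, 34 windows held at least 1 motif and 13 held none. The windows had a median GC content of 55.6%, beside 52% for all promoters and 60.4% for tested genes. A match is a description of letters and not a bound site.

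The following windows are shown because their genes carry the results above. Ndufb3 rose at 24 h and Sdhaf2 fell at 6 h, and Cox5b and Ndufb8 were among the genes with the smallest p in the comparison of PBS groups or at 72 h. Capitals mark the motifs. The windows are chr9:67623167-67623416 (+ strand) for Ndufb3, chr1:216592669-216592918 (- strand) for Sdhaf2, chr9:46417587-46417836 (+ strand) for Cox5b and chr1:253362937-253363186 (- strand) for Ndufb8, all GRCr8, upstream of the start and printed 5′ to 3′ on the strand of the gene.
Ndufb3: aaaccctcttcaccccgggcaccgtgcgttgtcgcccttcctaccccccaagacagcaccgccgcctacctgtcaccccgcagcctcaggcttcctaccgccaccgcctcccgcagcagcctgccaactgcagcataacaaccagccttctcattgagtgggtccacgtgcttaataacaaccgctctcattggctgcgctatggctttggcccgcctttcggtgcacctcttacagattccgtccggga
Sdhaf2: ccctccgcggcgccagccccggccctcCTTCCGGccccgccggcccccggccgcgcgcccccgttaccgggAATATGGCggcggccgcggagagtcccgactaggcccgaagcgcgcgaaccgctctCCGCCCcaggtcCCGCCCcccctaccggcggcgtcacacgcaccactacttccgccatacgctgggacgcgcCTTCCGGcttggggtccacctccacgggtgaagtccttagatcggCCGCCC
Cox5b: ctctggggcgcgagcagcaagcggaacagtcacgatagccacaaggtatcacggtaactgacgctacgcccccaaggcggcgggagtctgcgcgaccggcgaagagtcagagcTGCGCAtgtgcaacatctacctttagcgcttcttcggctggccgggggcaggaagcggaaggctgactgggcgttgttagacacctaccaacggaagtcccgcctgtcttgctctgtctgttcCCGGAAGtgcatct
Ndufb8: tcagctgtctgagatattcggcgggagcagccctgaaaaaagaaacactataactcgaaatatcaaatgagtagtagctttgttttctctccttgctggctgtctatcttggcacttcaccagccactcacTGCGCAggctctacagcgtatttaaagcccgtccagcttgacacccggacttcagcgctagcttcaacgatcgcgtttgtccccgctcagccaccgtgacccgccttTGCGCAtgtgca
The window of Ndufb3 held none of the 4 motifs, as did those of Ndufs7 and Atp5f1c, the other genes that rose at 24 h. The window of Sdhaf2 held 2 GABP sites, 3 Sp1 boxes and 1 YY1 core. Cox5b had 1 NRF-1 core and 1 GABP site, and Ndufb8 had 2 NRF-1 cores. A window without these letters says nothing of the factors elsewhere in the gene.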

How the data were processed

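Total RNA of rat hippocampus was measured on Affymetrix arrays. The authors deposited a linear signal intensity for each probe set on each array, and the image analysis behind it is not named in the labels. Groups were taken from the labels, 3 arrays in each of 10.

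Each array was scaled to a common mean trimmed by 2% at each end, raised to a floor at the 20th percentile (10.95, or 3.45 as log2) and log2-transformed. Testing required a signal over the 40th percentile (35.2) on 3 or more of the 30 arrays, as 6303 probe sets of 3696 genes had. Of 8799 probe sets, 59 are array controls and were left out, and of the other 8740, 7006 had 1 gene in the platform annotation, 308 several and 1426 none. The annotation was matched to current gene identifiers for 6985.

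Tests used limma 3.58.1 in R 4.3.3: a mean per group over all 30 arrays, empirical Bayes with an intensity trend (residual df 20, prior df 7.26) and Benjamini-Hochberg adjustment over all tested probe sets, threshold 0.05. F tests covered an effect at any time, differences between times and differences among PBS groups. Tables and figures used Python 3.11.15, pandas 2.3.3 and matplotlib 3.10.9. Alternatives covered scaling, floor, filter, probe set choice, moderation, weights, sample subsets, the replicate block and leaving out each array.

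Genes, lists and tests were chosen with earlier results of these data known. Named are the genes that passed at a time (the 4 with the smallest p where fewer than 4 passed), the 3 with the smallest p of each F test and of the mean effect, the extremes of each complex, isoform pairs and genes that are not subunits, with at most 4 passing genes of each other list and time.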

Additional observations from a re-analysis of the deposited data

Results flagged for a closer look

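A total of 3 genes had kainate arrays wholly above the PBS arrays at 1 time and wholly below them at another, 5.45% beside 12.4% of all tested probe sets, and the pairs of times were not compared directly. Ndufa4l2 stood at 0.57 at 240 h and -0.44 at 6 h. Its 4 other tested probe sets gave 0.08, 0.55, 0.11 and 0.22 at 240 h and, in the same order, -0.08, 0.12, -1.58 and -0.64 at 6 h, and none of them passed. Sdhaf2 stood at 0.34 at 72 h and -0.58 at 6 h. Atp5f1c stood at 0.48 at 24 h and -0.28 at 240 h. The difference between those 2 times was not tested for any of them. Limma's F test over all 5 times did not call them, with adjusted p-values of 0.0560 for Ndufa4l2, 0.0968 for Sdhaf2 and 0.116 for Atp5f1c.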

How the results depend on the processing

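Of the 14 settings other than leaving out an array, none reversed the sign of a call. Only genes called in the fit reported could count as reversed, and the settings draw on the same arrays, so this is a weak check. The count of called genes at 24 h, 5 in the fit reported, was 3 with no filter, 2 with no intensity trend, 3 with array weights, 1 with only the arrays of its own time and 2 with 6 and 72 h fitted apart from the other times. At 6 h the count of 1 became 0 with arrays centred on the median and with only the arrays of its own time, 5 with array weights (1 higher, 4 lower) and 2 with 6 and 72 h fitted apart from the other times. At 72 h array weights gave 5 calls, all higher, where the fit reported gave 0. The 2 genes with a mean effect became 1 with no filter and 1 with no intensity trend. The 3 genes with an effect at any time became 0 with no intensity trend and 9 with array weights. Differences between times, 0 as reported, were called for 1 gene with no filter, 1 with a filter at the 50th percentile and 3 with array weights. The cause of these shifts was not tested.

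With each array left out in turn, the counts ran from 0 to 2 at 6 h, 0 to 5 at 24 h and 0 to 1 at 240 h, and were 0 at 1 and 72 h. They ran from 1 to 5 for the mean effect, from 0 to 5 for an effect at any time, from 0 to 2 for differences between times and from 16 to 23 among PBS groups. The mean effect had 5 calls without PBS array 2 of 6 h and 4 without kainate array 1 of 240 h. It had 1 without PBS array 1 of 1 h, 3 of 24 h, 2 of 72 h, or 2 or 3 of 240 h, and without kainate array 1 of 1 h, 2 or 3 of 6 h, 1 of 24 h, 2 of 72 h or 2 of 240 h. The effect at any time had 0 without PBS array 1 or 3 of 24 h, 5 without kainate array 2 of 1 h, and 1 without PBS array 3 of 6 h, any PBS array of 72 h, kainate array 2 of 6 h or kainate array 3 of 24 h. Differences between times had 2 calls without kainate array 1 of 1 h, and 1 without PBS array 2 of 1 h, 1 or 2 of 6 h or 2 of 24 h, or kainate array 2 or 3 of 1 h or 3 of 240 h. Median differences of the genes ran from -0.18 to -0.015 at 1 h, from -0.13 to 0.0034 at 6 h, from -0.02 to 0.12 at 24 h, from -0.01 to 0.08 at 72 h and from -0.09 to 0.02 at 240 h.

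Cox4i2 at 24 h was called in 14 of the 14 settings and in 4 of 6 fits with an array of 24 h left out, Ndufb3 in 13 and 3, Ndufs7 in 10 and 2, Uqcr11 in 8 and 2, and Atp5f1c in 7 and 2. Sdhaf2 at 6 h was called in 12 and 2. Over all tested probe sets the 24 h count of 714 was 394 with each gene's probe sets averaged, 256 with only the arrays of its own time and 343 with 6 and 72 h apart. Over the 14 settings the count of 69 at 1 h ran from 30 to 78, that of 248 at 6 h from 156 to 633, that of 3 at 72 h from 0 to 153 and that of 3 at 240 h from 0 to 13. Among PBS groups the count of 1065 ran from 624 to 1755 over 12 settings.

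The replicate numbers of the labels are shared by the groups. Deviations of kainate and PBS arrays with the same number correlated between -0.07 and 0.17, over 0.1 in 3 of 15 pairs, so the numbers were not taken to pair the arrays. With the replicate block the count at 24 h was 4, with Atp5f1c lost, and that for an effect at any time was 2. The counts at the other times and for the mean effect were the same.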
